A study of Mus musculus with 6 samples.

Results

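Dnmt3b and Dnmt3b-ps1 are 2 neighbouring, related mouse genes on chromosome 2 (build mm10), and the places along them where methylated lung DNA was captured are described here in transgenic and wild-type mice. The capture used a methyl-CpG-binding domain protein and was followed by sequencing (MBD-seq), so each library has a list of peaks, which are intervals enriched for methylated fragments. The members were chosen by gene position, as every peak and every region of the authors' deposited table of differential regions within 2000 bp of either gene. When the peaks of the 6 lists were joined wherever they shared or touched at 1 bp, 17 of 166001 merged regions fell there, 13 at Dnmt3b and 4 at Dnmt3b-ps1. These genes were picked because their peak lists and differential regions were already known to differ between the groups. All their peak and region values are therefore given as a description, without a test.

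There were 3 transgenic lungs and 3 wild-type lungs, from mice aged 12 to 16 months, each a separate biological replicate. The genotype label of transgenic replicates 1 and 3 reads SPC-DNMTdelta3B/DG and that of replicate 2 reads SPC-DNMTdeltaB/DG, and all 3 are titled transgenic. The transgene is a deletion form of DNMT3B behind the promoter of surfactant protein C (SPC), which is active in alveolar type 2 cells, so only some cells of a whole lung would be expected to express it. The labels describe more than 1 founder line and do not say which animal came from which, and neither sex nor strain is given. The wild-type mice were age-matched and carried no transgene. Every transgenic animal thus carries added DNMT3B sequence and no wild-type animal does, and in peak lists reads from a transgene and from the mouse genes cannot be told apart. No RNA was measured, so the labelled tissue could not be checked against marker genes.

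Dnmt3b is an enzyme that places methyl groups on cytosines of CpG dinucleotides that carried none before, mainly in the early embryo, and loss of its human counterpart's activity causes a syndrome of immunodeficiency and unstable centromeric DNA. Shortened and inactive splice forms of DNMT3B are known from tumours. Dnmt3b-ps1 arose as a tandem copy of Dnmt3b in rodents and is also named Dnmt3c. The RefSeq table used here still annotates it as a pseudogene, although the copy is known as a methyltransferase of the male germ line that silences young retrotransposons.

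Peak lists ran from 30640 peaks in wild-type replicate 3 to 120349 in transgenic replicate 1. Read depth was unknown, and the length of a list is only a rough guide to it. Transgenic replicate 2 and wild-type replicate 2 were the best matched pair across the groups, with 116352 and 111211 peaks over 54.2 and 54.4 Mb and median scores of 103 in both. The score was assigned by the peak caller the authors used. It is not scaled between libraries, so each peak is also placed within its own list by the share of that list's peaks that scored lower.

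Dnmt3b spans positions 153649411 to 153687730 on the forward strand, and Dnmt3b-ps1 spans 153706484 to 153730013, 18753 bp further on. Exons and introns were not resolved, because the gene table gives only the outer ends of each gene. No list had a peak in the promoter window of Dnmt3b. The 212 bases before the annotated gene start, chr2:153649199-153649410 on the forward strand (RefSeq, GRCm38.p6), are shown because this CpG-dense stretch lay outside the peaks of all 6 lungs. Each CG dinucleotide is in capitals.
Dnmt3b promoter: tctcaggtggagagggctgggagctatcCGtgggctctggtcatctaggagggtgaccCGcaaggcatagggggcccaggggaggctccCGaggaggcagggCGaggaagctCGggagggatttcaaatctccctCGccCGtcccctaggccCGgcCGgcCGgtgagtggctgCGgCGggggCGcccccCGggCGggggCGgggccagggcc
This stretch holds 16 CG dinucleotides, and 73.6% of its bases are G or C. The full window of 300 bases, which reaches a short way into the gene, holds 30, against a median of 7 over 32851 promoter windows of that length. The letters CG read the same on both strands, and 11.7% of the windows hold as many or more. Among those 3837 windows, as CpG-dense or denser, a peak was found at 1.49%, 1.90% and 0.808% in transgenic replicates 1, 2 and 3. In wild-type replicates 1, 2 and 3 it was found at 0.730%, 1.93% and 0.495%. Over all 32851 windows the shares were higher in every library, at 5.32%, 5.20% and 3.04% in the transgenic and 2.26%, 5.43% and 0.788% in the wild-type replicates. The first peak after the promoter window began 7962, 9556 and 8096 bp downstream in transgenic replicates 1, 2 and 3 and 36715, 9556 and 27687 bp downstream in wild-type replicates 1, 2 and 3. The table holds no promoter window for Dnmt3b-ps1.

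**Figure D1:**
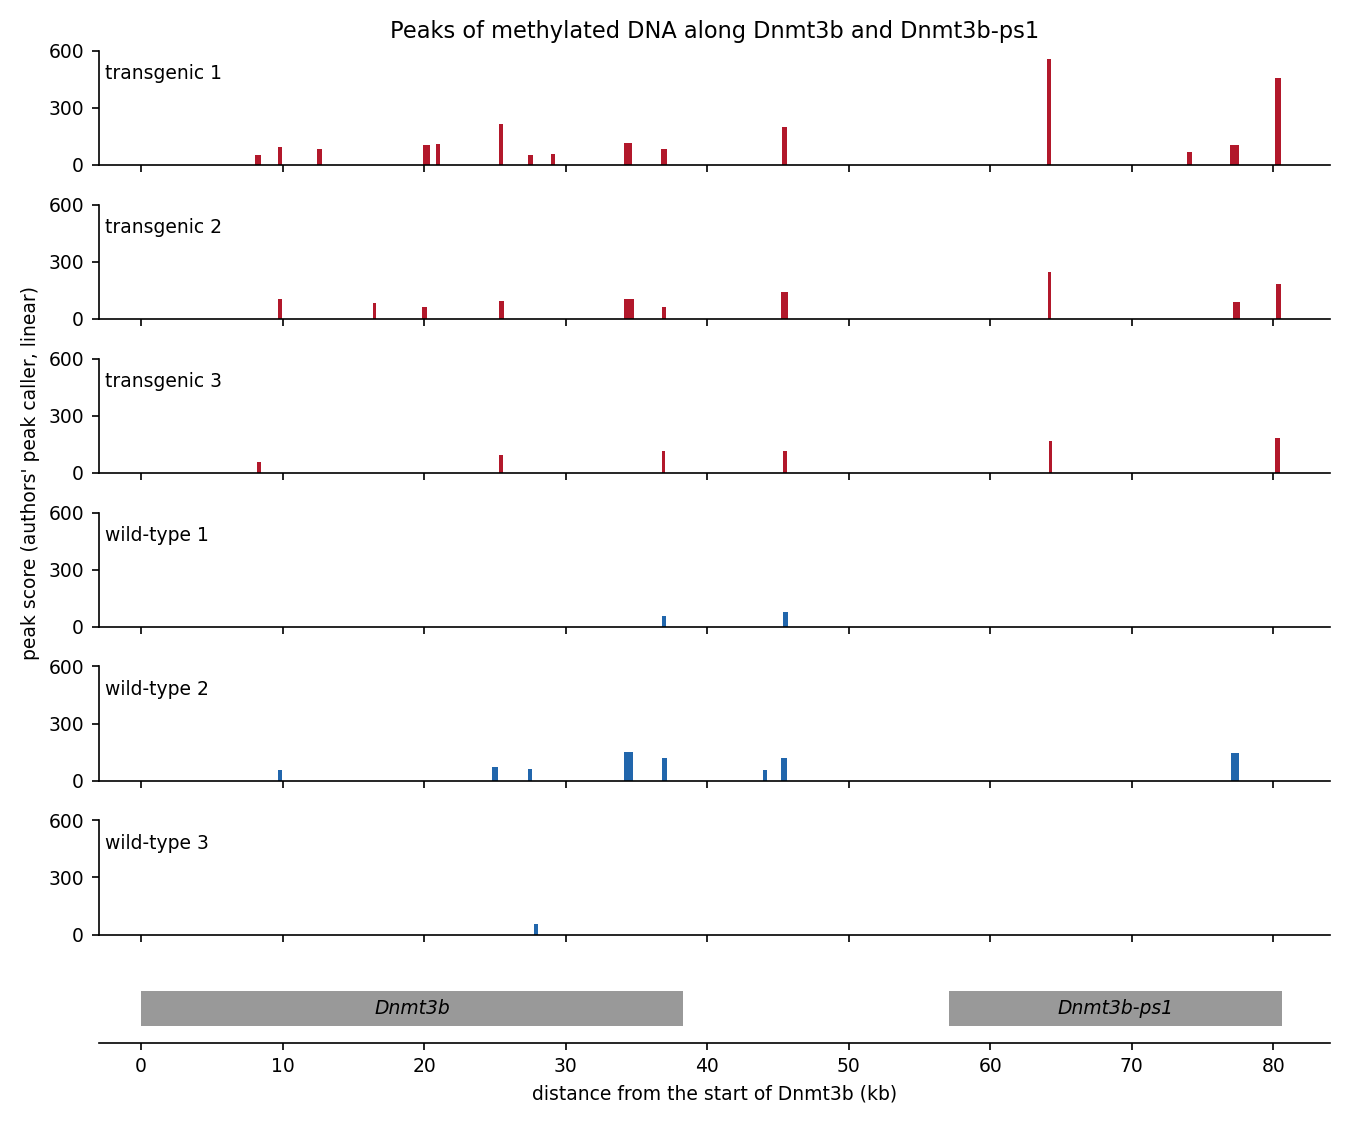
Peak score (vertical, the authors' linear scale) against distance from the start of Dnmt3b in kb (horizontal), 1 row per library, with transgenic lists in red, wild-type lists in blue and both gene spans as grey bars. In each transgenic list the highest peaks stand over Dnmt3b-ps1, at 64.2 and 80.3 kb, where no wild-type list has a peak.

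Dnmt3b-ps1 held 4, 3 and 2 peaks in transgenic replicates 1, 2 and 3, and 0, 1 and 0 in wild-type replicates 1, 2 and 3. Every transgenic list had more peaks there than any wild-type list. That ordering of counts was met by 1.82% of all 49943 genes, and the choice of the gene rested on the same contrast. Of the 49943 genes, 18844 had no peak in any list and could not meet it. The peaks covered 1736, 1091 and 553 bp in the transgenic lists and 585 bp in wild-type replicate 2. Of the 4 merged regions, 2 were transgenic-only, which here means a peak in each of the transgenic libraries and in none of the wild-type ones. This pattern was found at 1.80% of all merged regions and at 2.01% of those on chromosome 2. Of all genes, 4.19% had a transgenic-only region within 2000 bp and 0.449% had 2 or more. That was 2091 of the 49943 genes, whereas 17 had the reverse, a region with a peak in every wild-type and no transgenic list. The transgenic lists held 120349, 116352 and 78952 peaks and the wild-type lists 60131, 111211 and 30640. In whole lung, methylation in more cells, more methylation per cell and any reads from the added DNMT3B sequence cannot be told apart.

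The first transgenic-only region lay inside Dnmt3b-ps1 at 153713426 to 153713719, 6942 bp after its RefSeq start. The peaks of the 3 transgenic libraries shared a core of 161 bp, from 153713537 to 153713697. Their scores of 558, 248 and 169 stood above 93.7%, 85.1% and 80.8% of all peaks of the same list. All 3 were thus well above the middle of their lists, and the nearest wild-type peak was 12722 bp away. In the authors' deposited table this region had a log2 concentration (a measure of its reads) of 4.16 in transgenic and 0.66 in wild-type lungs. Its log2 fold of 3.51 corresponds to 11.4-fold, and the p-value of 6.89e-10 and FDR of 1.27e-05 are those of the authors' deposited table. It ranked first by fold and 5 by p among the 407 regions of the authors' deposited table. No wild-type concentration in the authors' deposited table was lower, and this one was shared by 3 regions, so the size of the fold rests on how very low values were treated.

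The second transgenic-only region lay at the end of Dnmt3b-ps1, within its RefSeq span, at 153729521 to 153729971. Its shared core of 284 bp ran from 153729632 to 153729915. The scores were 459, 186 and 185, above 90.9%, 76.3% and 83.9% of the peaks of transgenic lists 1, 2 and 3. In the authors' deposited table the log2 concentration was 4.46 in transgenic and 2.30 in wild-type lungs. The log2 fold of 2.16 (4.46-fold) had p = 2.80e-07 and an FDR of 0.00134 and ranked 12 by fold among the 304 regions that were higher in the authors' deposited table. Unlike the first region, it had 19 regions of the authors' deposited table below it in wild-type concentration. By the authors' annotation the Ensembl gene matched to Dnmt3b-ps1 ends at 153729905, inside the region at the gene's end, while the RefSeq span ends 42 bp after it. By the lowest of their within-list standings, the regions inside and at the end of Dnmt3b-ps1 ranked 2 and 4 among all 2987 transgenic-only regions. These ranks are description only, because the gene was picked with such values known. The next gene, Mapre1, begins 11303 bp beyond the gene-end region and the nearest CpG island, at 153741141 to 153741640, begins 11170 bp beyond it in the authors' annotation.

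Both regions of Dnmt3b-ps1 were small and weakly covered for differential regions of the authors' deposited table. They were 295 and 452 bp wide, against a median of 1192 bp for all 304 regions higher in the authors' deposited table. Their transgenic concentrations of 4.16 and 4.46 were below the median of 6.55 (log2) of the higher regions in the authors' deposited table. Among merged regions that 3 or more libraries supported, 0.330% were higher differential regions. Of all genes, 0.292% had such a region within 2000 bp and 0.00400% had 2 or more. The only genes with 2 were Dnmt3b-ps1 and Asph, named after its value was seen. Since these regions brought the gene into view, nothing further is read from those shares.

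**Figure D2:**
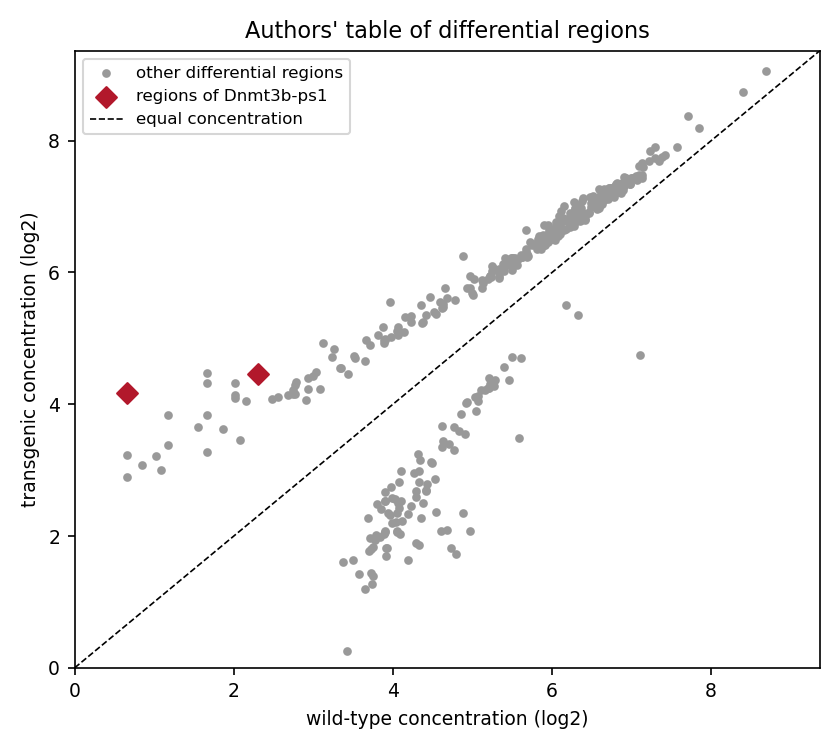
Transgenic (vertical) against wild-type (horizontal) log2 read concentration of the 407 regions in the authors' deposited table. Red diamonds are the regions of Dnmt3b-ps1, with all others as grey points and a dashed line at equal concentration. The diamonds lie at the low end of the wild-type axis, at 0.66 and 2.30, and at 4.16 and 4.46 on the transgenic axis.

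The remaining peaks of Dnmt3b-ps1 showed another pattern. At 153726342 to 153727076, between the transgenic-only regions, the score was 147 in wild-type replicate 2 and 103 and 88.7 in transgenic replicates 1 and 2, with no peak in the other 3 lists. In its own list the wild-type peak stood above 67.8% of peaks, and the transgenic peaks above 40.4% and 41.1% of theirs. The wild-type peak, which ended 2494 bp before the region at the gene's end, was thus the highest of the 3. A last peak, at 153723300 to 153723651, was in transgenic replicate 1 alone with a score of 66.7.

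For Dnmt3b itself, transgenic replicates 1, 2 and 3 had 10, 6 and 3 peaks, and wild-type replicates 1, 2 and 3 had 1, 5 and 1. The means were 6.33 ± 3.51 and 2.33 ± 2.31 peaks (SD, n = 3 each), and the groups overlapped, because wild-type replicate 2 had more peaks than transgenic replicate 3. The lists also differed in length. Per 100000 peaks of the list there were 8.31, 5.16 and 3.80 peaks in the transgenic and 1.66, 4.50 and 3.26 in the wild-type libraries. Without transgenic replicate 1 the difference of the means fell from 4 to 2.17 peaks. When the 30640 top-scoring peaks of every list were compared, Dnmt3b kept 0, 0 and 1 peaks in the transgenic and 0, 0 and 1 in the wild-type lists. Under the same limit Dnmt3b-ps1 kept 2 peaks in each transgenic list and 0 in each wild-type list. Wild-type replicates 1 and 3 had no peak there before the limit, and the list of wild-type replicate 3 was not shortened by it. Since the gene was chosen on these peaks, the comparison is description only. In the matched pair of lists, transgenic and wild-type replicate 2, the counts were 6 and 5 at Dnmt3b and 3 and 1 at Dnmt3b-ps1.

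No region of Dnmt3b was in the authors' deposited table. Of its 13 merged regions, 6 rested on a single list, 4 had peaks of both groups, and 1 was transgenic-only. Such a region lay within 2000 bp of 7.15% of protein-coding genes. The transgenic-only region of Dnmt3b lay at 153674701 to 153675043, about 66.4% of the way along the gene. Its scores were 218, 93.5 and 91.5, above 71.2%, 44.4% and 50.1% of the peaks of their lists. These peaks stood in the middle or upper middle of their lists, lower than both transgenic-only regions of Dnmt3b-ps1. A peak of wild-type replicate 2, with a score of 71.8, ended only 60 bp before this region. With peaks joined across gaps of up to 500 bp the region of Dnmt3b was no longer transgenic-only, and those of Dnmt3b-ps1 were the 2 left.

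The best shared region of Dnmt3b lay near its end, at 153686174 to 153686581, 1149 bp before the end of the gene. Scores there were 82.0, 62.8 and 115 in transgenic replicates 1, 2 and 3 and 57.2 and 120 in wild-type replicates 1 and 2. Within their lists these peaks stood above 28.5%, 15.6% and 63.5% of transgenic and 15.5% and 58.1% of wild-type peaks. The groups overlapped on both measures, with wild-type replicate 2 highest by score and transgenic replicate 3 highest by standing. A wider region at 153683540 to 153684208 had scores of 114 and 105 in transgenic replicates 1 and 2 and 149 in wild-type replicate 2. In their lists these stood above 45.3%, 51.3% and 68.3% of peaks, so the wild-type peak was highest by score and by standing. At 153659055 to 153659398 the order was the other way round, with 95.7 and 104 in transgenic replicates 1 and 2 and 56.2 in wild-type replicate 2. All other peaks of Dnmt3b were in at most 2 lists each, with scores between 51.1 and 109. The single peak of wild-type replicate 3, at 153677186 to 153677368, scored 53.8, near the lowest listed score of 50, and matched no peak of another list.

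**Figure D3:**
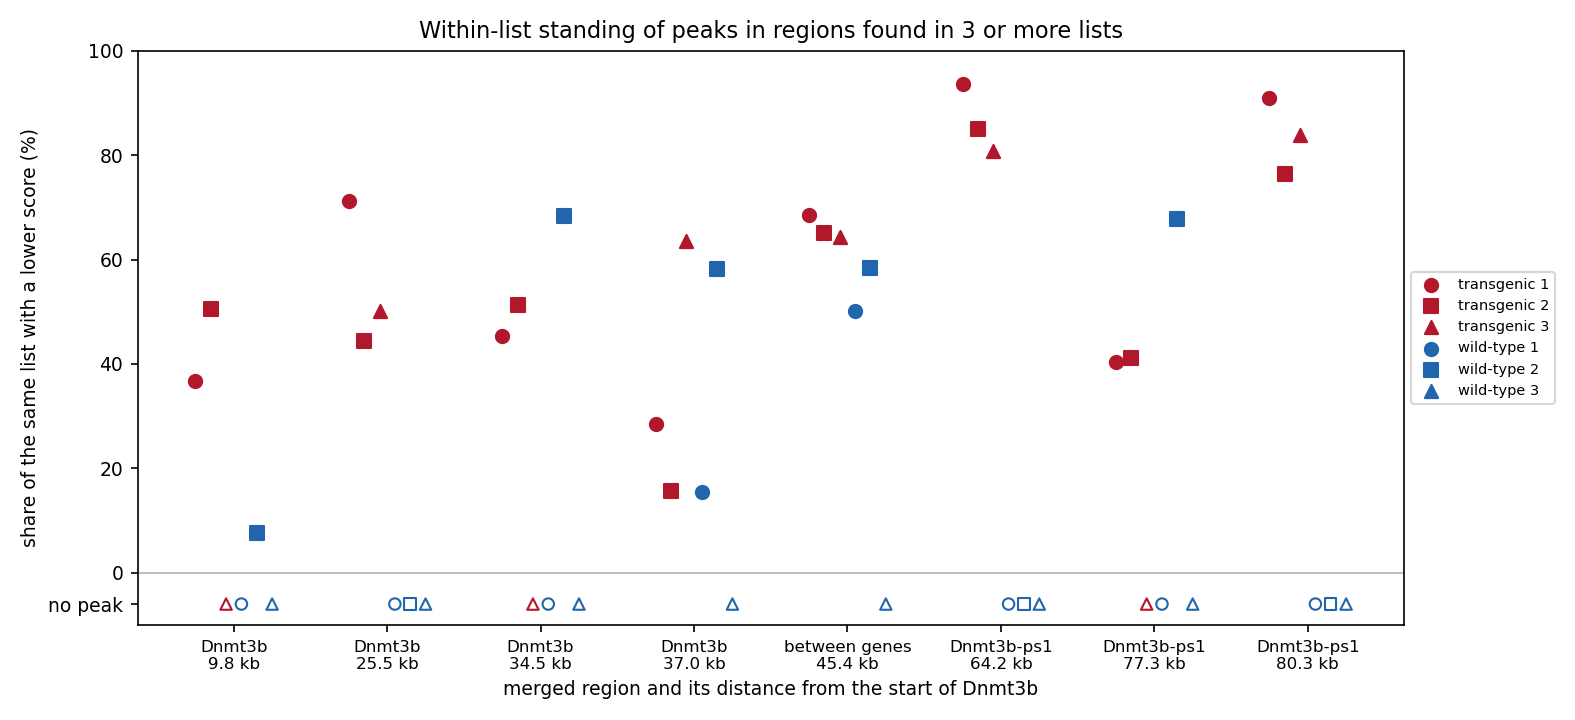
Share of the same list's peaks with a lower score, in percent (vertical), for the merged regions that 3 or more lists support (horizontal, with the distance of the middle from the start of Dnmt3b in kb). Each symbol is 1 library, transgenic in red and wild-type in blue, and open symbols below 0 mark lists without a peak. Red symbols stand between 76.3% and 93.7% at the regions at 64.2 and 80.3 kb, where all wild-type symbols are open.

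The 18753 bp between the RefSeq spans of the genes held a region that most lungs shared, outside the chosen windows. In the authors' annotation the Ensembl gene matched to Dnmt3b-ps1 starts earlier, at 153696652, and this region lies within 2000 bp of that start. At 153694622 to 153695099, 6892 bp after the end of Dnmt3b, transgenic replicates 1, 2 and 3 scored 202, 140 and 116, against 75.4 and 121 in wild-type replicates 1 and 2. Within their lists these peaks stood above 68.6%, 65.1% and 64.3% of transgenic and 50.1% and 58.5% of wild-type peaks, and wild-type replicate 3 had none. Against this neighbour within the same list, the region inside Dnmt3b-ps1 scored 2.77, 1.78 and 1.45 times as high in the transgenic libraries, and the region at its end 2.27, 1.33 and 1.59 times. The transgenic-only region of Dnmt3b scored 1.08, 0.670 and 0.786 times as high. Wild-type replicates 1 and 2 thus had a peak between the genes and none at the transgenic-only regions of Dnmt3b-ps1. A lesser peak, in wild-type replicate 2 alone, lay at 153693355 to 153693666 with a score of 54.5. Outside the pair, the nearest region before Dnmt3b was 12989 bp away, with scores of 127, 97.8 and 115 in the transgenic lists and 58.3 in wild-type replicate 2. The nearest region after Dnmt3b-ps1 was 47737 bp away.

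The genes on either side did not show the transgenic-only pattern. Commd7, which encodes a COMM-domain protein, had 1 peak in each transgenic list and 0, 2 and 0 in the wild-type lists. Nol4l, a nucleolar protein-like gene, had 7, 4 and 3 peaks in transgenic and 5, 8 and 3 in wild-type lists. Beyond Dnmt3b-ps1, Mapre1, which encodes a protein of growing microtubule ends, had no peak in any list. Efcab8, an EF-hand gene, had 9, 10 and 6 peaks in transgenic and 2, 8 and 2 in wild-type lists, and its best peak in wild-type replicate 2 scored 343, against 508, 307 and 249 in the transgenic lists. Sun5, a nuclear envelope gene of sperm, and the pseudogene Gm14494 each had 2, 2 and 1 transgenic and 0, 2 and 0 wild-type peaks. The noncoding RNA gene 4930404H24Rik had 2, 0 and 0 against 1, 2 and 0, and the pseudogenes Gm14472 and Gm17897, the latter between the members, had none. None of these neighbours held a transgenic-only region or a differential region. In the whole 1 Mb before the pair 2 of 86 merged regions were transgenic-only, and in the 1 Mb after it 1 of 73. The nearest other region of the authors' deposited table on chromosome 2 was 5.93 Mb away.

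**Figure D4:**
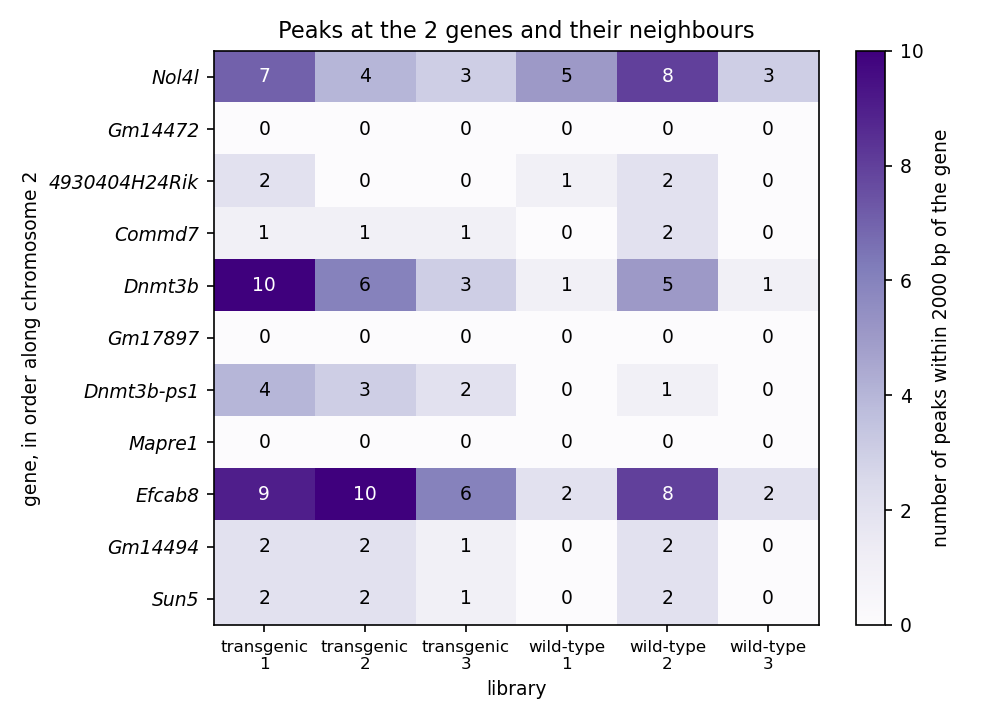
Number of peaks within 2000 bp of each gene (colour and printed number) in each of the 6 libraries (horizontal), for Dnmt3b, Dnmt3b-ps1, the gene between them and the 4 nearest genes on each side, in order along chromosome 2 (vertical). Dnmt3b has 10, 6 and 3 transgenic and 1, 5 and 1 wild-type peaks, and Mapre1 has 0 in every library.

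Other genes were ranked by how closely their 6 libraries resembled those of each member. Each library's value was the within-list standing of the best peak within 2000 bp, set to 0 where there was none, and likeness was the Euclidean distance over the 6 values. Of 21886 protein-coding genes, Parg, which encodes the enzyme that removes poly(ADP-ribose), was closest to Dnmt3b-ps1 at a distance of 6.34 percentage points, against a median of 116. Its best scores were 529, 316 and 204 in transgenic lists and 141 in wild-type replicate 2, and it also had 1 higher region in the authors' deposited table. The next were Gm32916, the splicing factor gene Syf2, the methyltransferase gene Vcpkmt and the defensin gene Defa30, at 8.68 to 12.4. Closest to Dnmt3b were the forkhead gene Foxp4, Pgap6, the peptidylarginine deiminase gene Padi3, the sarcoglycan gene Sgcb and the Polycomb gene Phc2, at 13.5 to 14.2 against a median of 97.7. Counting only whether a library had a peak, 6.75% of the genes had the same pattern as Dnmt3b-ps1 and 29.3% that of Dnmt3b. The pattern of Dnmt3b, a peak in every library, was thus common.

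Genes that work with these enzymes were examined in the same windows, as 41 genes in 5 lists. None of the 8 writers of methylation and their partners had a differential region, and 1, the maintenance methyltransferase gene Dnmt1, had a transgenic-only region. Dnmt3a, the other de novo enzyme, had 11, 7 and 6 transgenic and 4, 12 and 1 wild-type peaks, so its groups overlapped as those of Dnmt3b did. Uhrf1, which guides Dnmt1 to newly copied DNA, had 4, 6 and 1 against 1, 5 and 1. The partner genes Zbtb24 and Cdca7, both mutated in the same human syndrome as DNMT3B, had peaks in 6 and 5 libraries. Of 6 genes for removal of methylation, Tet2 had a transgenic-only region, Tet1, Tet3 and Tdg had peaks in all 6 libraries, and Gadd45a and Gadd45b had none. Of 8 genes for methyl-binding proteins none had a transgenic-only region, and Mbd1, Mbd3, Zbtb4 and Zbtb38 had peaks in all 6 libraries. A peak in every library was found at 29.3% of protein-coding genes.

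Of 10 genes of the male germ-line pathway that small RNAs guide, in which Dnmt3c is also known to act, 3 had a transgenic-only region. These were Piwil4, Tdrd9 and Pld6. At Pld6, a mitochondrial enzyme gene of small-RNA production, the scores were 144, 129 and 109 in the transgenic lists and no wild-type list had a peak. These stood above 55.6%, 61.4% and 60.7% of their lists, below both transgenic-only regions of Dnmt3b-ps1. Mov10l1, Tdrd9, Mael and Asz1 had peaks in all 6 libraries. Among 9 further germ-cell genes 8 had peaks in all 6 libraries, Slc25a31, Sycp1, Dazl and Sycp3 among them. Over the 5 lists 24 of 41 genes had such peaks, against 29.3% of protein-coding genes. Of the germ-cell genes 0 had a transgenic-only region, and Dazl had 1 higher region in the authors' deposited table. Over the 5 lists, 5 of 41 genes had a transgenic-only region (12.2%), against 7.15% of protein-coding genes. These shares rest on few genes, from lists chosen with earlier results of these data known. They were not matched for gene length and were not tested. Among the 5 genes the length ran from 3765 bp at Pld6 to 97367 bp at Tdrd9. The median over genes of the mean peak count was 3 in transgenic and 1.67 in wild-type lists for the writers, 4.17 and 2.17 for the erasers and 2.17 and 1.67 for the small-RNA genes. It was 1.17 in both groups for the readers and 1.33 in both for the germ-cell genes, against 0.667 and 0.333 over all genes. That last comparison is not like for like. The listed genes are all protein-coding, whereas all 49943 genes include pseudogenes and noncoding genes, and 18844 of the 49943 had no peak in any list. Dnmt1, Piwil4, Pld6, Gadd45a and Gadd45b are named because of their values.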

How the data were processed

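The data were MBD-seq peak lists of 6 mouse lungs and a table of 407 differential regions deposited by the authors. Bowtie, DiffBind, edgeR and mm10 are named in the submitters' processing notes, without roles or versions. Peaks were called per library by the authors, and per the file headers and names the caller is MACS, with unstated settings. The deposited score of a peak is that caller's own value. The deposited table holds concentrations and folds on a log2 scale, with the authors' p-values and FDR, and how the concentrations were normalized is not stated there. Distances to Mapre1 and to the CpG island come from the authors' deposited annotation, and all others were computed from RefSeq positions and peaks.

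Peaks were merged with Python 3.11.15 and pandas 2.3.3. All 407 differential regions equal merged regions, and 92205 regions had peaks in 3 or more lists. Starts of merged regions are 1-based. Gene spans and promoters are from RefSeq (GRCm38.p6, 49943 genes). Both members and all 41 listed genes were matched by symbol. Ensembl genes were matched by span, to Dnmt3b-ps1 with a reciprocal overlap of 0.704. Merging and gene assignment were tested on simulated peaks set far apart, which does not cover closely spaced peaks such as those at Dnmt3b.

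The members and lists were chosen with earlier results of these data known, so no test was made. Named were both genes, 4 neighbours per side, the 5 most alike genes for each member, and up to 4 genes per list with peaks in most libraries. Read counts per library were not used here, so depth is unknown and no interval is given.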

Additional observations from a re-analysis of the deposited data

How the results depend on the processing

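The difference in mean peak number at Dnmt3b was 4 (transgenic minus wild type) and became 0 when each list was limited to its 30640 best peaks. With a minimum score of 96.3, the pooled median, it was 1.67. Leaving out 1 library at a time gave 2.17 to 5.67 at Dnmt3b, the lowest without transgenic replicate 1. At Dnmt3b-ps1 the difference was 2.67, with 2.17 to 3.17 when 1 library was left out, and 2 with either limit on scores. The count of transgenic-only regions at the pair was 3, with 3 to 4 when 1 library was left out, and 2 with either limit on scores or with joining across 500 bp. Leaving out a library only loosens the rule for such a region, so that count could not fall below 3. Flanks of 0 or 5000 bp, and a rule that at least 50% of a peak lie in the window, changed none of these values. They could not, because every peak at the pair lay inside a gene span and the nearest other began 5625 bp after Dnmt3b. The 2 differential regions were the same in number with those flanks, at an FDR under 0.05 and at an absolute log2 fold of 1 or more. Both lay inside the RefSeq gene, with log2 folds of 3.51 and 2.16 and FDRs already below that limit, so these settings could not remove them. Counting only presence of a peak, 4 of the 5 genes named as most like Dnmt3b-ps1 and 1 of the 5 named for Dnmt3b had the same pattern. No paired analysis was possible because these values come from no test and the labels do not say that animals with the same replicate number belong together. Unknown depth and a wild-type list, that of replicate 3, of 30640 peaks limit what the lack of a wild-type peak can show. The peaks of wild-type replicate 3 covered only 6.89 Mb, against 26.4 to 63.4 Mb in the other lists.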
